A study of Mus musculus with 36 samples.

Results

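Bhas 42 cells exposed to 5 µg/cm² of NM-203 were set directly against the same cells exposed to 1 µg/cm², to find which responses separate the high dose of this material from the low one. Each dose had 4 samples (replicates 1 to 4), so 8 of the 36 samples in the series enter the comparison. They were chosen by their sample titles. NM-203 is a synthetic amorphous silica made by a pyrogenic route. Bhas 42 is a single line of mouse fibroblasts, made by putting the viral Ha-ras oncogene into BALB/c 3T3 cells, that serves in cell transformation assays. Every sample was therefore the same established line with the same oncogene, grown in medium with serum. Cells were seeded at 1460 cells/cm², treated on day 4 and harvested on day 6, 48 h later. The 4 water samples (2%) and the 4 samples with 2 µg/cm² of NM-203 are used below only to place both doses. The submitters mention independent experiments without saying which array came from which, so p-values measure only the spread between these samples, which may be technical.

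As background, transformation assays with these cells score foci, patches of cells that keep dividing after the surrounding layer has become confluent and stopped. Fibroblasts at confluence normally leave the cell cycle, lay down collagen-rich matrix and raise growth arrest genes. Re-entry into the cycle runs through E2F factors, which turn on DNA replication genes, and then through the DREAM, B-Myb and FoxM1 system, which turns on mitosis genes through CHR promoter elements. Myc drives ribosome production, ATF4 drives amino acid synthesis under stress, and interferon-stimulated genes answer nucleic acids in the cytosol or secreted interferon.

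RNA was measured on 1-colour arrays, 1 per sample. Levels are log2 intensities relative to the array's 75th percentile, so 0 is the signal that 75% of the spots fall under, and levels of different genes are not compared. On the 8 arrays 55.1% to 63.7% of probes were well above background, and replicates of a dose correlated with r of 0.984 to 0.991 across genes. Both doses shared slides 1, 3 and 5. Each sample was labelled from 100 ng of RNA, so fewer cells of a kind and less RNA per cell cannot be told apart. Fibroblast identity was checked with 12 markers, all measured: Col1a2, Vim and Twist1 did not pass the test between doses, and 7 of the 12 fell. Throughout, values after ± are the standard error of the limma fit with n = 4 arrays per dose, adjusted p-values are limma's after Benjamini-Hochberg adjustment over all genes tested, and a gene "rose" or "fell" where that p was under 0.05.

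Between 1 and 5 µg/cm², 9138 of 32492 gene names passed the test, or 28.1%. Of these 4102 were higher at the high dose (12.6% of those tested) and 5036 lower (15.5%), with a median difference over all genes of 0.02. List counts below are to be read beside these shares of 12.6% and 15.5%. At least 2-fold differences were called for 1045 higher genes (3.22%) and 1511 lower genes (4.65%). With normexp background correction and quantile scaling together, 595 and 488 were of that size. Against water the low dose itself gave 28 calls (0.0862%), 14 higher (0.0431%) and 14 lower (0.0431%), and 1864 genes with an unadjusted p under 0.05. That small count moved with the settings, from 0 in a fit of only the arrays compared to 293 with array weights. It was 2 without replicate 2 of the low dose, 2 without replicate 3 or 4 of water and 101 without replicate 1 of water. The 2556 genes called at 2-fold or more were sorted by what they did at 1 µg/cm². For 465 of the 1045 higher genes (44.5%) and 570 of the 1511 lower genes (37.7%), the 95% interval of the change from water to 1 µg/cm² lay within 1.5-fold both ways; these are called bounded at the low dose below. Another 10 higher and 10 lower genes had already been called in the same direction at 1 µg/cm², and 0 in the opposite direction. The other 570 and 931 had an interval too wide to bound and no call at the low dose, which does not show that they were at the water level there.

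The size of both steps was also compared directly, as the change from 1 to 5 µg/cm² minus the change from water to 1 µg/cm², called the step difference. It passed the test for 3068 genes (9.44%), 1443 in the positive direction (4.44%) and 1625 in the negative (5%). The second step spans more material than the first, so a larger second step does not mean a larger response per µg. Scaling the arrays on the median gene, which moved the median difference of all genes to 0.10, left 801 step calls in place of 3068, and step counts below are given with both scalings.

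The largest rises were in secreted proteins. Prl2c3, a proliferin (a prolactin-like hormone first found in growth-stimulated 3T3 cells), lay at 1.60, 1.37, 1.75 and 1.01 on the high-dose arrays and at -2.45, -2.32, -2.74 and -2.76 on the low-dose arrays, replicates 1 to 4 in turn. The groups were far apart, a 16-fold rise (log2 difference 4.00 ± 0.20, adjusted p = 7.64e-15). Prl2c1 rose 14.5-fold and Prl2c5 12.2-fold. These genes are nearly identical in sequence, and how the signal divides among them is uncertain. All 3 proliferins rose more in the second step than in the first, by 3.03 to 3.41 (adjusted p of the step difference at most 3.89e-07). Saa3, an acute-phase serum amyloid, lay between 0.27 and 1.71 at the high dose and between -2.85 and -2.22 at the low dose, a 13.5-fold rise (3.76 ± 0.27, adjusted p = 1.31e-11), with replicate 4 of the high dose lowest. Its mean in water was -3.73, so it stood 1.16 higher at 1 µg/cm², which did not pass the test (adjusted p = 0.0985). Il1rn, the interleukin-1 receptor antagonist, was not well above background on any low-dose array and lay at -3.92, -4.87, -3.79 and -4.56 at the high dose, at least 2.18-fold higher. Mfsd2a, a transporter of lysophosphatidylcholine, was likewise measured at the high dose only and was at least 6.58-fold higher (adjusted p = 3.71e-07). The secreted carbonic anhydrase Car6 rose 7.78-fold, the NLR family gene Nlrp2 7.65-fold and the LIM protein gene Fhl1 7.42-fold. The hormone Fgf21 rose to between -2.98 and -2.57, and 2 of its 4 low-dose arrays were not well above background, so no fold is given. Fhl1 was bounded at the low dose, with means of -3.64 in water, -3.65 at 1 µg/cm² and -0.76 at 5 µg/cm².

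**Figure D1:**
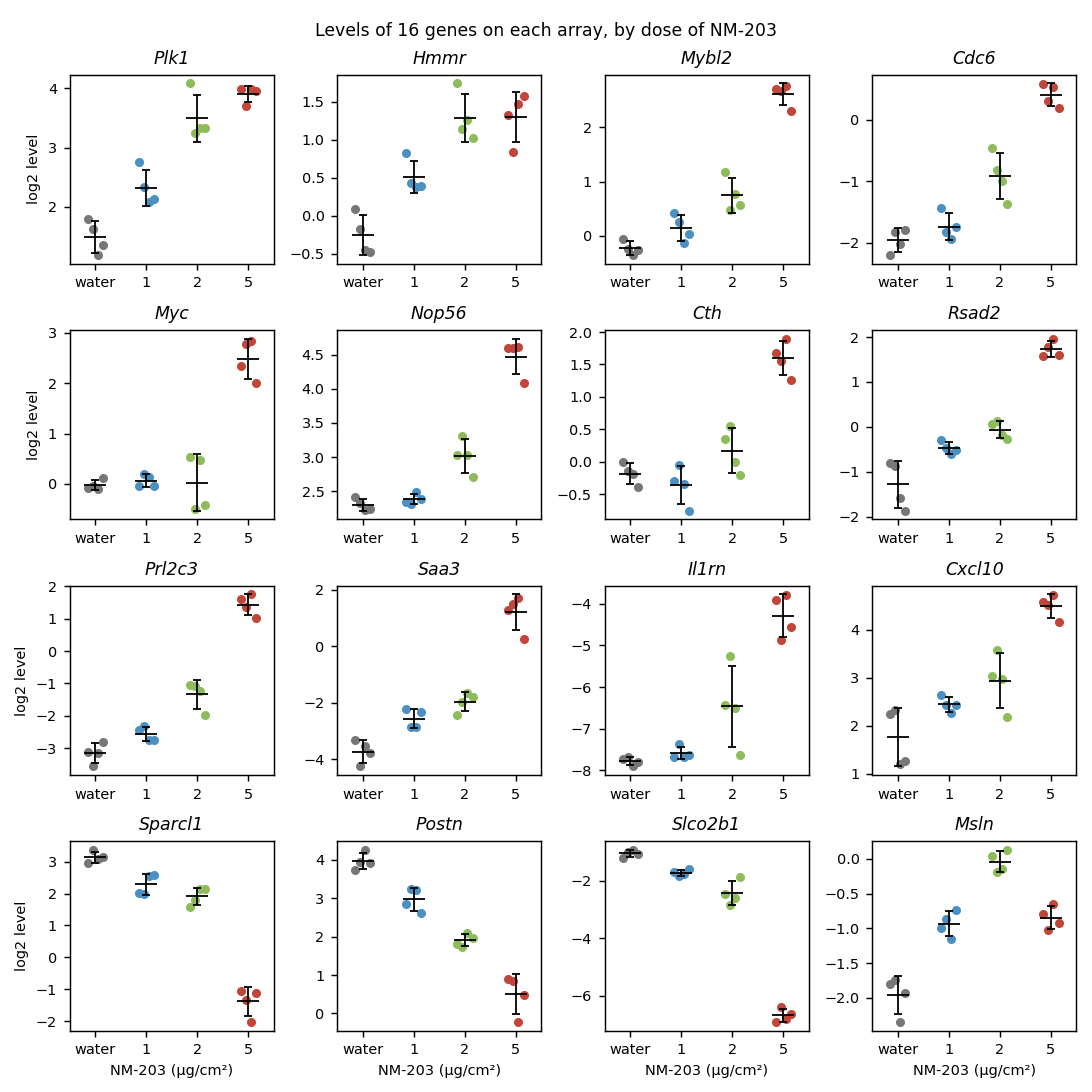
Log2 level relative to the array's 75th percentile (vertical axis, a scale of its own in each panel) of 16 genes in water and at 1, 2 and 5 µg/cm² of NM-203 (horizontal axis); points are arrays, 4 per group, with the mean and SD in black. Plk1 and Hmmr are already higher at 1 µg/cm², and Myc stays near its water mean of -0.02 until 5 µg/cm², where it reaches 2.49. Msln is higher than in water at 1 µg/cm², higher again at 2 µg/cm², and at 5 µg/cm² near its level at 1 µg/cm².

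The large falls included carriers, a prostaglandin enzyme and a calcium-binding protein. Slco2b1, an organic anion transporter, lay at -1.68, -1.84, -1.75 and -1.59 at the low dose and was not well above background on any high-dose array, at least 11.3-fold lower (adjusted p = 1.30e-14). Its mean was -1.04 in water and -2.43 at 2 µg/cm². One of the 4 arrays behind every mean at 2 µg/cm² given here, replicate 2, stands apart, with 380 outlier spots and a median spot CV of 16.1%. S100b, a calcium-binding protein, lay at -3.40, -3.44, -4.32 and -2.85 at the high dose against 0.75, 0.17, 0.41 and 0.35 at the low dose, 15.1-fold lower (adjusted p = 1.07e-14). Ptgds, the prostaglandin D2 synthase, fell 14.7-fold from a range of 0.38 to 1.04 to a range of -3.71 to -2.97. The organic cation transporter Slc22a2 also fell, from between -2.44 and -2.15 to a high-dose range of -7.52 to -4.74, of which 1 array was well above background, so no fold is given. Sparcl1, a matricellular protein related to SPARC, fell 12.7-fold from 2.02 to 2.58 down to -2.02 to -1.06. Selenbp1, Apobec2 and the predicted gene Gm13398 were not well above background on any high-dose array, at least 4.21-fold, 2.65-fold and 2.34-fold lower. Lbhd2 fell 10.3-fold. The largest falls that were bounded at the low dose were Spon2, a matrix protein (-3.07 ± 0.20), the alcohol dehydrogenase Adh1 (-2.97), the chemokine Pf4 (-2.88), the amino acid transporter Slc7a7 (-2.76), Nrep (-2.69) and the myocardin-like coactivator Mamstr (-2.65). Their means in water and at 1 µg/cm² differed by 0.20 or less. One of them had probes that differed in size: the other probe of Adh1 stood 0.98 lower at the high dose.

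Genes of G2 and mitosis rose between the doses and lay above their water means at 1 µg/cm², where few were called. Of 75 listed genes 75 were measured, and 73 rose between the doses with 0 lower, against 12.6% higher over all genes. Their median difference was 1.28 (range 0.41 to 2.47). All 75 already lay above their water mean at 1 µg/cm², by a median of 0.76, and 9 of them were called there. Members measured on the same arrays are not independent. Low-dose calls were also unstable: of all 28, 1 remained when scaled on the median, 0 with only the arrays compared and 2 without replicate 3 or 4 of water. Plk1, the Polo-like kinase that drives mitotic entry, lay at 1.79, 1.62, 1.19 and 1.36 in water, at 2.75, 2.33, 2.08 and 2.14 at the low dose and at 3.99, 3.70, 3.98 and 3.96 at the high dose. Its 3 groups did not overlap. The rise was 0.83 to 1 µg/cm² (adjusted p = 0.0448) and 1.58 ± 0.17 from there to 5 µg/cm² (adjusted p = 1.42e-08). For Nek2, a centrosome kinase, those values were 0.82 and 1.53, for Tpx2, the activator of Aurora A, 0.68 and 1.41, and for the kinesins Kif23, Kif20b and Kif4 0.82 and 1.21, 0.81 and 1.29, and 0.83 and 1.15. The step difference passed for 9 of the 75 genes, all positive (1 of 75 when scaled on the median). That count leaned on single arrays: it was 21, 4, 2 and 4 without replicate 1, 2, 3 or 4 of the low dose.

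Some mitosis genes rose about as much in the first step as in the second. Hmmr, a spindle-binding hyaluronan receptor, rose by 0.76 and then 0.80 (adjusted p = 0.000147), and Aspm, a spindle pole protein, by 0.97 and then 0.92. Their step differences were 0.03 (adjusted p = 0.989) and -0.05 (adjusted p = 0.986). Their means at 2 µg/cm², 1.29 and 0.95, lie beside 1.31 and 0.93 at 5 µg/cm². The cyclin Ccnb2 rose 1.62-fold between the doses and its groups touched, since replicate 1 of the low dose (2.82) reached the lower high-dose arrays. Replicate 1 was the highest of the low-dose arrays for Plk1, Hmmr, Aspm, Ccnb1 and Ccnb2. It was the one low-dose array on slide 2, which also held water replicates 1 and 2, the higher water arrays of these genes. The transcription factor Mybl2 (B-Myb) differed from these: it lay at 0.41, 0.25, -0.14 and 0.03 at the low dose against a water mean of -0.23, and at 2.70, 2.68, 2.76 and 2.31 at the high dose. It rose 5.55-fold (adjusted p = 4.69e-12) with a step difference of 2.10 (adjusted p = 2.00e-05). Aurka (1.11) and Kif18b (1.23) were the 2 members that missed the test.

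Promoters of 5 mitosis genes, chosen by hand, are shown because the members of the list moved together at both doses. They come from RefSeq on GRCm38.p6, run 5′ to 3′ on the gene's strand from 150 bases before the annotated start to 20 bases from it on, and carry in capitals the CHR (TTTGAA) and the CCAAT box, each read on either strand.
Hmmr, chr11:40733418-40733587, minus strand: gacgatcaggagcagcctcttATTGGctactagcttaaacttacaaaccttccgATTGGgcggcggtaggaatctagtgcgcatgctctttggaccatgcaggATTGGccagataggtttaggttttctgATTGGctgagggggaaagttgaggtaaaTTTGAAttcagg
Aspm, chr1:139454623-139454792, plus strand: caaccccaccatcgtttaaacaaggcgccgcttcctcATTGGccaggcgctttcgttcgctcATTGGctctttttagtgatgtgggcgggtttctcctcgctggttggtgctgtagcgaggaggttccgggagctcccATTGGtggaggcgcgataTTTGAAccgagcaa
Kif23, chr9:61946780-61946949, minus strand: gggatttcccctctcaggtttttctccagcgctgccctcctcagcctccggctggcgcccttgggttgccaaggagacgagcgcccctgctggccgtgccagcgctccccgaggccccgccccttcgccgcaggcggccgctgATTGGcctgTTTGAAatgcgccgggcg
Spag5, chr11:78301441-78301610, plus strand: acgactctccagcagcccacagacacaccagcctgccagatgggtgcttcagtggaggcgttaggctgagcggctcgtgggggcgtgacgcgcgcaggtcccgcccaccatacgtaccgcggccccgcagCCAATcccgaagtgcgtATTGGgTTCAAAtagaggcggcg
Ccnb2, chr9:70421535-70421704, minus strand: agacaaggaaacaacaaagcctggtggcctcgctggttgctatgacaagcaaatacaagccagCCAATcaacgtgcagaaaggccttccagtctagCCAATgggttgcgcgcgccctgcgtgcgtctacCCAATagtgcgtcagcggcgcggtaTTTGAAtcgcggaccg
In each of these 5 the CHR begins 2 to 8 bases past the start and a CCAAT box lies upstream of it. Promoters shown here and below were picked by hand, so they do not tell how common a motif is in a list. Of 62 listed mitosis genes with a promoter window (250 bases before to 50 after the start), 43 held TTTGAA (69.4%), against 16.6% of the windows of 14130 tested genes. CCAAT was found in 74.2% of the mitosis windows and 42.6% of all. The motif count is a description and was not tested.

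Genes of DNA replication and S phase rose mostly in the second step. Of 65 measured genes 59 rose and 0 fell, with a median difference of 1.5, against a median of 0.32 between water and 1 µg/cm², where 0 of them were called. The step difference was positive and called for 42 of 65 (16 when scaled on the median). Mcm10, a factor needed to fire replication origins, lay at 2.24, 1.98, 2.20 and 1.75 at the high dose and at 0.09, -0.41, -0.54 and -0.44 at the low dose, 5.15-fold higher (adjusted p = 7.43e-12). Cdc6, which loads the MCM helicase, lay at 0.59, 0.32, 0.54 and 0.19 against -1.44, -1.82, -1.94 and -1.74. It rose by 2.14 ± 0.18, against 0.22 in the first step (95% interval -0.15 to 0.59). The licensing factor Cdt1 rose by 2.12, the origin subunit Orc1 by 2.05 and the helicase subunits Mcm2 to Mcm7 by 1.33 to 2.07. Mcm4, Mcm6 and Mcm7 were bounded at the low dose. Among enzymes of nucleotide supply, thymidine kinase (Tk1) rose by 1.74 and Rrm2, a ribonucleotide reductase subunit, by 1.68. Tyms had a difference of 1.55 and missed the test. Its other probe stood 1.42 higher, and 1 of the 2 passed when probes were tested singly. The repair exonuclease Exo1 rose 5.19-fold. E2f1 rose by 0.42 only, whereas E2f7 rose by 1.79 (its other probe stood 0.25 higher) and E2f2 by 1.73. Cyclin E1 (Ccne1) rose by 1.24; the value for Ccne2 was 1.40 with an adjusted p of 0.0523.

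Both promoters below are of licensing genes and hold in capitals an E2F site, as TTTGGCGC or TTTCCCGC on either strand.
Mcm6, chr1:128359686-128359855, minus strand: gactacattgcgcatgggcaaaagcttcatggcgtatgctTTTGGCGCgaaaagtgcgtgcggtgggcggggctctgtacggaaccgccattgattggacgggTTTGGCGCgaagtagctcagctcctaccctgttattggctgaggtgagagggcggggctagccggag
Cdc6, chr11:98908001-98908170, plus strand: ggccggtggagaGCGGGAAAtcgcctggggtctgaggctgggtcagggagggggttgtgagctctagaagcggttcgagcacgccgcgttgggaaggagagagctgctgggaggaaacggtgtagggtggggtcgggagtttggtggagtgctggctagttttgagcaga
Mcm6 holds TTTGGCGC at positions -110 and -47 from its start. Among 51 listed replication genes with a window, TTTGGCGC was in 17.6% and TTTCCCGC in 19.6%, against 0.899% and 1.86% of all windows.

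Brakes on the cycle were lower. Of 7 CDK inhibitors 4 fell and 0 rose: Cdkn1b (p27) by 0.71, Cdkn2c by 0.63, Cdkn2a by 0.48 and Cdkn2b by 0.36 on the log2 scale. Cdkn1a (p21) had a difference of -0.42 and did not pass. Its other probe stood 0.53 lower, and 1 of the 2 passed when probes were tested singly. Scaled on the median gene, 1 of the 7 fell. Of 12 measured growth arrest genes 7 fell and 1 rose. Gas6, a ligand of the TAM receptors, lay at -2.59, -2.62, -2.48 and -2.56 at the low dose and at -5.66, -5.12, -4.88 and -4.11 at the high dose, where 3 arrays were well above background, 5.21-fold lower (adjusted p = 7.96e-07). The quiescence-associated genes Ccng2 (-1.88), Gas7 (-1.50) and Gas2 (-1.43) fell and were bounded at the low dose. Rbl2 (p130) fell by 0.87 and its relative Rbl1 (p107), itself an E2F target, rose by 1.22. D-type cyclins lay between -0.15 and 0.11 and did not pass.

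**Figure D2:**
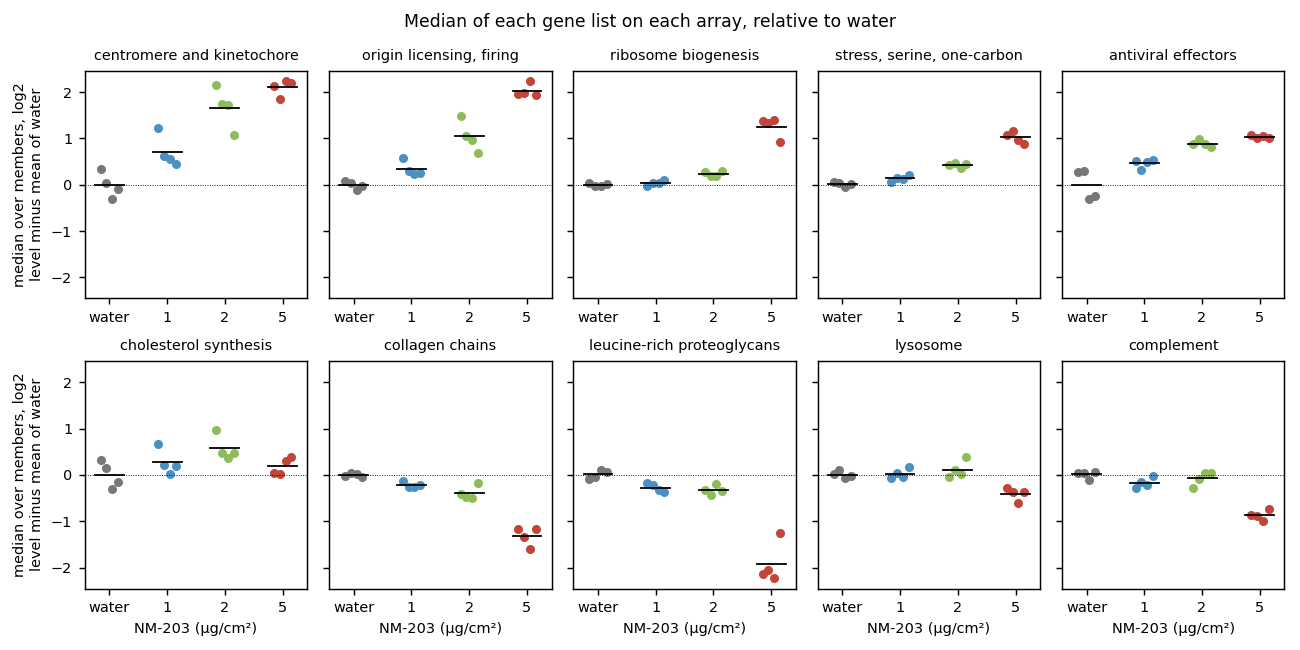
Median over the members of 10 gene lists of the log2 level minus the mean of water (vertical axis) on each array of water and NM-203 at 1, 2 and 5 µg/cm² (horizontal axis, 4 points per group, line at the mean). The median of centromere and kinetochore genes is 0.45 to 1.22 at 1 µg/cm² and 1.84 to 2.24 at 5 µg/cm², with 0 of 16 members called in the first step, whereas that of ribosome biogenesis lies between -0.03 and 0.11 at 1 µg/cm² and between 0.92 and 1.40 at 5 µg/cm².

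Myc and the genes that build ribosomes belonged to the high dose. Myc lay at -0.09, -0.03, -0.09 and 0.11 in water and at -0.05, 0.20, 0.14 and -0.05 at 1 µg/cm², and reached 2.33, 2.78, 2.83 and 2.00 at 5 µg/cm². That is a 5.37-fold rise (2.42 ± 0.21, adjusted p = 3.36e-10), while the change to 1 µg/cm² was 0.09 with a 95% interval of -0.35 to 0.52. Its mean at 2 µg/cm² was 0.03. The related Bmyc rose 6.13-fold with the same pattern (means of -3.80 in water, -3.69 and -1.08 at the low and high dose). Of 24 ribosome biogenesis genes 23 rose and 0 fell, with a median of 1.23 against 0.04 in the first step. Of the 19 members that rose at least 2-fold, 18 were bounded at the low dose, against 44.5% of all genes that rose as much. The step difference was positive for 21 of 24 (17 when scaled on the median). Nop56, a core protein of the snoRNPs that methylate rRNA, lay at 2.34, 2.31, 2.48 and 2.38 at the low dose and at 4.61, 4.61, 4.61 and 4.08 at the high dose, 4.28-fold higher (adjusted p = 1.44e-11). The nucleolar helicase Ddx21 rose 5.02-fold and Rrp12, needed for subunit export, 4.19-fold. Dkc1, the pseudouridine synthase, rose by 1.54, the RNA polymerase I subunits Polr1b and Polr1a by 1.45 and 1.21, and fibrillarin (Fbl) by 1.21. Replicate 4 of the high dose was the lowest of its group for Myc, Nop56 and Rrp12 (1.87, against 3.12 to 3.15 on the other arrays). Exosc2 (0.13) did not pass. E-boxes (CACGTG) were in 5 of 20 windows of the list (25%) and 10.1% of all. That share was not particular to this list, since AP-1 and ERK output genes had it in 8 of 33 windows (24.2%).

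AP-1 and ERK output was split. Fosl1 (Fra-1), an AP-1 subunit, lay at 0.42, 0.25, 0.76 and 0.10 at the high dose and at -1.78, -1.81, -2.40 and -1.75 at the low dose, 4.98-fold higher (adjusted p = 7.36e-09). It was bounded at the low dose. Maff (1.26), Junb (0.69), Fosl2 (0.66) and Jun (0.54) also rose, making 5 of 11 AP-1 subunits, while Fos (0.04), Fosb (-0.19) and Jund (0.19) did not pass. Among immediate early genes 2 of 14 rose, Myc and Ier5, a count not set apart from the 12.6% higher over all genes. Of 13 measured ERK feedback genes 5 rose: the phosphatase gene Dusp4 by 2.37, the ETS factors Etv4 and Etv5 by 1.77 and 1.05, Dusp1 by 0.78 and Spred2 by 0.66. Dusp6 (0.24), Spry1 (-0.04) and Spry2 (-0.12) did not pass. Of 6 measured genes in the list of EGF family ligands 3 rose: Hbegf (1.61), Ereg (0.97) and Nrg1 (0.87). Btc (-1.12) and Tgfa (-0.38) did not pass.

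Genes of the integrated stress response and of serine and one-carbon synthesis rose with the high dose. Of 22 measured members 15 rose and 2 fell, with a median of 0.82 against 0.16 in the first step, and all 9 that rose at least 2-fold were bounded at the low dose. Cth, which makes cysteine from cystathionine, lay at -0.29, -0.06, -0.35 and -0.76 at the low dose and at 1.68, 1.55, 1.90 and 1.27 at the high dose, 3.89-fold higher (adjusted p = 6.85e-11). The serine synthesis enzyme Psat1 rose by 1.68 ± 0.13, Psph by 1.36 and Phgdh by 0.85. In mitochondrial folate metabolism Shmt2 rose by 1.73, Mthfd2 by 1.67 and Mthfd1l by 1.36. The pseudokinase gene Trib3 rose by 1.65, the glutathione-degrading Chac1 by 1.41 and asparagine synthetase (Asns) by 1.21. Atf4 itself rose by 0.97 and Ddit3 (CHOP) by 0.50. Ddit4 (-0.72) and the arginine transporter Slc7a3 (-0.85) fell, and Sesn2 (0.21) and Aldh1l2 (0.38) did not pass. The other probe of Aldh1l2 stood 0.55 higher, and 1 of its 2 probes passed when tested singly. Step differences were positive for 10 of 22 (9 when scaled on the median).

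The promoters of Asns, of the cystine transporter Slc7a11 and of Fgf21 are shown with the amino acid response element TGATGNAA in capitals, read on either strand.
Asns, chr6:7693190-7693359, minus strand: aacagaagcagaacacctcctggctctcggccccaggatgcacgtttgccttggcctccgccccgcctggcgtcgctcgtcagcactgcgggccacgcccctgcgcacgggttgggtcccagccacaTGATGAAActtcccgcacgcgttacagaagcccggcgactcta
Slc7a11, chr3:50443594-50443763, minus strand: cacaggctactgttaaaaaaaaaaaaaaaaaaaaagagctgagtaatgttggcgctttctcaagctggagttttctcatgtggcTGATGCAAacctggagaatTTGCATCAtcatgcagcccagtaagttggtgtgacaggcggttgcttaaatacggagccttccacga
Fgf21, chr7:45615471-45615640, minus strand: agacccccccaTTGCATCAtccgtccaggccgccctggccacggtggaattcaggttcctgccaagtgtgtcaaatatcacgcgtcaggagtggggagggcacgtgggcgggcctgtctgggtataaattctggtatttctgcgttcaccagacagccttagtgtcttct
Slc7a11 holds the element at positions -66 and -47 from its start. It lay at -3.64, -3.14, -3.77 and -3.79 at the low dose and at -1.38, -1.43, -1.08 and -1.37 at the high dose, 4.82-fold higher (adjusted p = 2.38e-06). The element was in 5 of 18 windows of the stress list (27.8%) and 3.45% of all.

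Other stress programmes moved less as lists, with medians between the doses from -0.23 (apoptosis regulators) to 0.41 (heat shock). Of 16 unfolded protein response genes 5 rose and 1 fell, with the ER chaperone gene Hspa5 at 0.85, Manf at 0.86 and the sensor kinase gene Eif2ak3 (PERK) at -0.82. Heat shock genes rose in 9 of 17 cases and fell in 1, led by Hsph1 (1.37) and the mitochondrial chaperonin Hspd1 (1.05), while the inducible Hspa1b (0.18) did not pass and Hspa1a was not well above background at either dose. NRF2 targets rose in 17 of 32 cases and fell in 5. The largest rise among them was that of Slc7a11 (2.27), shown above, which is counted here and not in the integrated stress list. Gclc, which limits glutathione synthesis, rose by 1.45 and thioredoxin reductase Txnrd1 by 1.00. Hmox1 (0.26) and Nqo1 (-0.29) did not pass, and the aldehyde oxidase Aox1 fell by 1.5. Targets of p53 were mixed, 4 of 20 higher and 7 lower, with Sesn1 (-1.50) and Trp53inp1 (-1.30) lowest; scaled on the median gene 4 rose and 2 fell. The mitotic p53 regulator Gtse1 rose by 1.45, and Mdm2 (0.15) and Bax (0.21) did not pass. Of 18 apoptosis regulators 7 fell and 1 rose (1 and 1 when scaled on the median). Bcl2l11 (Bim) had the lowest value, -1.89 with an adjusted p of 0.0344 and a spread from -0.93 to 0.80 at the high dose. Its 4 probes ranged from -1.89 to -0.56.

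**Figure D3:**
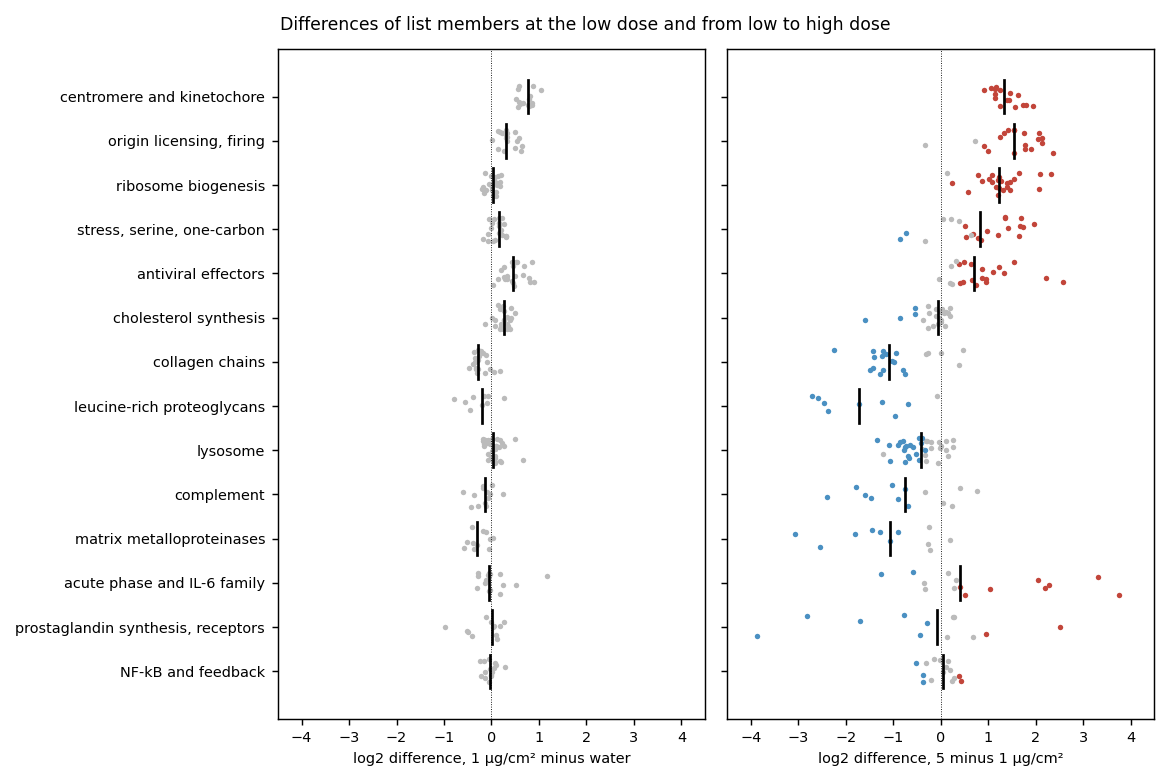
Log2 differences of the members of 14 gene lists, at left from water to 1 µg/cm² and at right from 1 to 5 µg/cm² (horizontal axes); each point is a gene, red or blue where it passed the limma test and grey where it did not, black bars are list medians. Members at left lie mostly above 0 in the cell cycle, antiviral and cholesterol rows. They lie mostly below it in the collagen, proteoglycan and metalloproteinase rows, with medians of -0.29, -0.20 and -0.31. Medians of the other rows at left are nearer to 0. These 14 lists have 0 calls at left, and members split to both sides at right.

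Many interferon-stimulated genes were higher at the high dose. Of 54 measured genes 28 rose between the doses and 0 fell, with a median of 0.37. In the first step 53 of 54 lay above water by a median of 0.31, but 0 were called, and water itself was spread: replicates 1 and 2 were higher than 3 and 4 for antiviral effectors (list medians of 0.27 and 0.29 against -0.30 and -0.25), and both lay on slide 2. Positive step differences were called for 4 of 54 (0 when scaled on the median). Antiviral effectors gave 17 of the 28, out of 22. Rsad2 (viperin) lay at -0.80, -0.87, -1.59 and -1.87 in water, at -0.30, -0.47, -0.60 and -0.52 at the low dose and at 1.59, 1.78, 1.96 and 1.60 at the high dose. It rose 4.62-fold between the doses (adjusted p = 1.01e-09). Oasl1, an oligoadenylate synthetase-like regulator of Irf7, rose 6.00-fold, Oas1g by 1.53 and Oas3 by 1.33. Isg15, an abundant ubiquitin-like modifier, rose 1.82-fold from 6.40 to 6.71 up to 7.21 to 7.59. Of the nucleic acid sensors Zbp1 rose by 1.72 and Cgas by 1.43, and Sting1 (0.02) and Mavs (-0.13) did not pass. Another probe of Zbp1 stood 0.60 higher. The transcription factor Irf7 rose by 1.00, while Irf1 (0.19), Irf9 (0.12) and Stat2 (-0.04) did not pass. The list of guanylate-binding proteins, which also holds the GTPase genes Igtp and Irgm1, and that of class I presentation moved little. In the first 3 of 8 rose, namely Gbp3 (0.65), Igtp (0.87) and Irgm1, so Gbp3 was the only guanylate-binding protein gene to rise. In class I presentation 3 of 10 rose, the immunoproteasome subunits Psmb8, Psmb9 and Psmb10, while H2-K1 (0.10) and B2m (-0.04) did not pass. The probes of Xaf1 disagreed in direction.

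Promoters of Rsad2 and Isg15 hold in capitals the core of the interferon-stimulated response element, GAAANNGAA read on either strand, with 3 overlapping matches in Isg15.
Rsad2, chr12:26456433-26456602, minus strand: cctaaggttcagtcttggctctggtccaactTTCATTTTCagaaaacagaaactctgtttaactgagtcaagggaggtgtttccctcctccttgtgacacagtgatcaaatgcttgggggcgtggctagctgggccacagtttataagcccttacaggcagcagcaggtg
Isg15, chr4:156200799-156200968, minus strand: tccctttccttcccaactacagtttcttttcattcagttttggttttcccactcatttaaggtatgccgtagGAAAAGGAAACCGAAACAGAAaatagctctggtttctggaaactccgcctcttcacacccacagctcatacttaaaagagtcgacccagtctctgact
This core was in 13 of 18 windows of antiviral effectors (72.2%) and in 9% of all.

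Inflammatory genes went both ways, 21 of 81 measured higher and 24 lower, against 12.6% higher and 15.5% lower over all genes. Besides Saa3 and Il1rn, the cytokine Il6 rose 4.87-fold (2.28 ± 0.24, adjusted p = 6.89e-09) with all low-dose arrays between -4.71 and -4.09 and all high-dose arrays between -2.61 and -1.90. The IL-33 receptor gene Il1rl1 rose 4.61-fold and the siderophore-binding Lcn2 4.13-fold. Listed chemokines rose in 6 of 15 cases and fell in 3 (4 and 1 when scaled on the median). The list leaves out Pf4, which fell by more than any of them (-2.88). The interferon-inducible Cxcl10 lay at 2.65, 2.44, 2.26 and 2.44 at the low dose and at 4.58, 4.53, 4.72 and 4.15 at the high dose, 4.14-fold higher. The monocyte attractants Ccl7 (1.45) and Ccl2 (1.06) rose and were bounded at the low dose, whereas Cxcl1 (-0.05) did not pass and Cx3cl1 fell by 1.04. The probes of Cxcl12 disagreed in direction. In prostaglandin metabolism the inducible cyclooxygenase Ptgs2 rose 5.71-fold from -3.14 to -2.77 up to -0.95 to -0.03. The prostacyclin receptor Ptgir was at least 3.48-fold lower, Ptger1 fell to a level at which 1 high-dose array was well above background, and Ptgds fell as given above. NF-kB subunits and feedback genes moved little, 2 of 15 higher and 3 lower (1 and 0 when scaled on the median), all within -0.51 to 0.43. Those counts are not set apart from the shares over all genes. Of 11 measured inflammasome genes 3 rose, among them Nlrp2 (2.94) and Casp4 (0.85), and 2 fell, Il18 (-1.32) and Naip6 (-0.955). Nlrp3 (0.22), Casp1 (0.05) and Pycard (0.13) did not pass. Complement genes fell in 8 of 13 cases and rose in 0. The protease gene C1s1 fell by 1.60 and the central component C3 by 1.47 on the log2 scale.

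Extracellular matrix genes fell as a group. Of 78 measured genes 47 fell and 5 rose, against 15.5% lower over all genes, with a median of -0.72 and of -0.16 in the first step. The step difference was negative for 30 and positive for 1 (11 and 1 when scaled on the median). Postn (periostin), a matricellular protein of activated fibroblasts, lay at 2.85, 3.23, 3.21 and 2.61 at the low dose and at 0.91, 0.84, -0.22 and 0.49 at the high dose, 5.55-fold lower (adjusted p = 1.24e-09). It had stood at 3.97 in water, and the difference of -1.0 at the low dose did not pass (adjusted p = 0.0901). Of 9 small leucine-rich proteoglycans, which space collagen fibrils, 8 fell: asporin (Aspn) by 2.58, fibromodulin (Fmod) by 2.45, lumican (Lum) by 2.38 and decorin (Dcn) by 0.97 on the log2 scale. Keratocan (Kera) fell from between -2.38 and -1.81 to between -5.22 and -4.49, with 2 high-dose arrays well above background. Lum had a range of -0.86 to -0.16 at the low dose and of -3.49 to -2.58 at the high dose. Collagen chains fell in 15 of 20 cases and rose in 0. Col5a3 fell by 2.25 (its other probe by 0.74), Col16a1 by 1.49, Col6a3 and Col3a1 by 1.43 and Col1a1 by 0.95. Col1a1 lay between 6.31 and 6.48 at the low dose and between 5.26 and 5.65 at the high dose, and its other probe stood 0.38 lower. Its partner chain Col1a2 had a difference of -0.32 and did not pass. Of 16 collagen-processing genes 10 fell, with the procollagen protease Bmp1 (-1.28) and the prolyl hydroxylase P4ha3 (-1.20) lowest and Serpinh1 (0.07) and P4ha1 (0.01) not called. Ltbp2, which binds microfibrils, fell by 1.70, and Fbn1 (0.51) and Eln (-0.11) did not pass. Members that went against the group were matricellular: tenascin N (Tnn) rose 4.17-fold, Ccn1 by 1.29, Ccn5 by 0.96 and Ccn4 by 0.43. The collagen prolyl hydroxylase P4ha2 rose by 0.26.

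Enzymes and receptors that work on the matrix also fell. Matrix metalloproteinases fell in 7 of 11 cases and rose in 0. Mmp3 (stromelysin-1) lay at -1.58, -2.08, -1.98 and -1.88 at the low dose and at -5.05, -5.64, -4.93 and -4.21 at the high dose, a fall (adjusted p = 2.68e-11) for which no fold is given, since 2 high-dose arrays were well above background. The gelatinases Mmp9 and Mmp2 fell by 2.55 and 1.82 and the membrane-bound Mmp14 by 1.45 on the log2 scale. Among their inhibitors Timp4 fell 6.53-fold (its other probe by 1.81 on the log2 scale) and Timp1 rose by 0.45. The tissue plasminogen activator Plat fell by 1.41 and the urokinase receptor Plaur rose by 0.87. Of 12 integrin genes measured 5 fell, including the collagen receptor subunit Itga11 (-2.38), and Itgb7 rose by 1.82. The gap junction gene Gja1 rose 2.34-fold and the adhesion molecule Ncam1 fell by 1.42. Among growth factors and receptors 23 of 49 fell and 5 rose: Igf2r, which clears IGF2, fell 5.43-fold, Igf2 by 1.58, the PDGF receptors Pdgfrb and Pdgfra by 1.09 and 0.84 and Tgfbi by 1.66, while Gdf15 rose by 1.01.

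Many lysosomal genes fell between the doses. Of 37 measured genes 20 fell and 0 rose, with a median of -0.41 against 0.03 in the first step. Scaled on the median gene, 14 fell. The step difference was negative for 9 of the 37. Counted together with scavenger and uptake receptors it was negative for 12 of 51 genes (1 when scaled on the median). The sialidase Neu1 fell by 1.09, the mannosidase Man2b1 by 1.06 and the saposin precursor Psap by 0.87, and the regulators Tfeb (-0.04) and Tfe3 (-0.05) did not pass. The 4 probes of Tfeb ranged from -0.59 to -0.04, and 1 of them passed when tested singly. The efferocytosis receptor Mertk was at least 2.74-fold lower and the endocytic receptor Lrp1 fell by 1.27. In cholesterol synthesis 23 of 24 genes stood above water at 1 µg/cm² (median 0.25, 0 called). Between the doses 0 rose and 4 fell, a count not set apart from the 15.5% lower over all genes: Tm7sf2 by 1.60, Insig1 by 0.85 and Dhcr7 and Nsdhl by 0.54 on the log2 scale. Sqle (-0.10) did not pass. The median of this list between the doses was -0.06 over all arrays but 0.33 within slide 1 and -0.19 within slide 3, and scaled on the median gene it was 0.02 with 2 falls.

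The 26 named genes called at 1 µg/cm² show what the low dose had begun. Besides the 9 mitosis genes above, Troap, Car6 and Msln were higher, and 14 were lower. Cacna1g, a T-type calcium channel subunit, fell by 0.97 and then by a further 3.18 between the doses (adjusted p = 8.97e-15). Chadl, a collagen-binding matrix protein, fell by 1.22 and then 2.56, though its other probe stood 0.27 higher at the high dose. The G protein regulator Rgs8 fell by 1.39 at 1 µg/cm² and was not well above background on any high-dose array, at least 1.46-fold lower, while its other probe stood 0.37 higher. The chemerin gene Rarres2 fell by 0.93 and then 1.38, and the transcription factor Ebf1 by 0.70 and then 1.28 on the log2 scale. Tmem158, also known as a Ras-induced gene, fell by 0.71 and then 1.23. Others stopped or turned. Msln (mesothelin) lay at -1.80, -1.74, -2.35 and -1.94 in water, at -0.99, -0.86, -1.15 and -0.73 at 1 µg/cm² and at -0.80, -1.03, -0.65 and -0.93 at 5 µg/cm². It rose by 1.02 in the first step (adjusted p = 0.000762) and differed by 0.09 ± 0.14 between the doses (adjusted p = 0.779), with a step difference of -0.94 (adjusted p = 0.0105). Its mean at 2 µg/cm² was -0.04, above both. Ddah1, which degrades an inhibitor of nitric oxide synthase, fell by 0.56 at 1 µg/cm² and rose by 0.73 ± 0.11 between the doses (adjusted p = 7.12e-06), back to 0.96 against 0.79 in water. Scaled on the median gene, 1 of the 28 low-dose calls remained.

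Of 34 markers of other cell types 26 were measured, and 8 fell and 1 rose. Of 10 macrophage markers 7 were measured, 2 fell (Aif1 by 2.01 and Lyz2 by 1.57) and 0 rose. Adgre1 was not well above background at either dose, Ptprc, Tyrobp and Fcgr1 were too dim to test, and Itgam and Csf1r had means of 4.09 and 1.69 at the low dose. The log2 of the summed level of the list, most of which was Itgam, ranged from 4.24 to 4.62 at the low dose and from 4.00 to 4.42 at the high dose. Of 5 measured endothelial markers Cdh5, Emcn and Vwf fell, Cdh5 and Emcn to below background, and their summed level ranged from -1.51 to -1.38 and from -2.45 to -1.78. Of 4 epithelial markers Krt8 fell by 1.59, and Epcam and Cdh1 were too dim to test. Of 6 muscle markers Des fell by 1.24 and Tnnt3 by 0.96, and of 4 adipocyte markers Fabp4 rose, with 2 high-dose arrays and 1 low-dose array well above background. Summed levels at the low and high dose ranged from -1.46 to -1.05 and -1.86 to -1.44 for epithelial, 0.01 to 0.33 and -0.86 to -0.48 for muscle, and -0.94 to -0.53 and -0.56 to -0.51 for adipocyte markers. Fibroblast markers had summed levels of 9.71 to 10.21 at the low dose and 9.19 to 9.59 at the high dose, with Pdgfrb (-1.09), Dcn (-0.97) and Col1a1 among those that fell beside the matrix genes. The part of cell composition in these results was not tested.

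Slides 1, 3 and 5 each held both doses. Of the 9138 called genes 9047 (99.0%) differed in the same direction within each of the 3 slides, as did 2532 of the 2556 that were at least 2-fold apart. Within slides 1, 3 and 5 alone 4628, 2775 and 3372 genes were called. Prl2c3 differed by 4.13, 3.69 and 4.36 within them, Myc by 2.27, 2.58 and 2.38, Nop56 by 1.87, 2.29 and 2.23, and Slco2b1 by -4.97, -4.56 and -5.32.

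**Figure D4:**
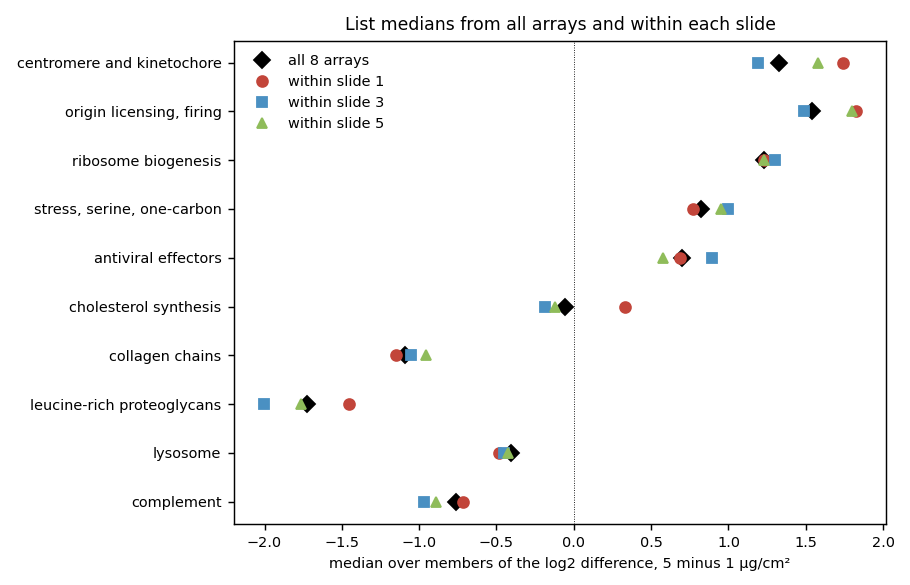
Median over list members of the log2 difference between 5 and 1 µg/cm² (horizontal axis) for 10 gene lists (vertical axis), from all 8 arrays (black) and within slides 1, 3 and 5, which hold 3, 2 and 2 of these arrays. Ribosome biogenesis is 1.23, 1.30 and 1.23 within them, and cholesterol synthesis is the row whose sign differs between slides.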

How the data were processed

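RNA of each sample was hybridised to a 1-colour Agilent array (Cy3), 36 arrays in 9 groups of 4. The deposited scanner files hold intensity values from Feature Extraction 11.0.1.1, per the file headers: the processed signal, already background-subtracted, of 62976 spots. The deposited value table holds the authors' log2 values of the same arrays; each column's median lay between -0.25 and 0.27, its centring is not stated, and it served as an alternative. From the processed signal, log2 minus each array's 75th percentile over non-control spots was taken, outlier spots were left out and spots of a probe averaged. RefSeq named 32994 of 56605 probes. A probe was tested if 3 or 4 arrays of some group read it well above background, and the brightest probe stood for its gene. limma 3.58.1 in R 4.3.3 fitted 9 group means over all 36 arrays, with Benjamini-Hochberg adjustment over 32492 gene names. The fit was tested on simulated data. "At least N-fold" sets the mean of the bright group against that of the dim one, in which each array is given its own reading or, if greater, its dimmest detected probe.

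The members, the gene lists and the genes named were chosen with earlier results of these data known. Named were the 10 largest rises and falls, the 3 largest each way in each list, the 6 largest each way bounded at the low dose, the 5 largest step differences each way, genes called at 1 µg/cm², and list members that define a role. Some genes that this rule names are not reported here. Samples were grouped by title. Arrays at 2 µg/cm² and water arrays were scanned on different days, so levels at 2 µg/cm² are description. Alternatives were normexp (offset 50) with quantile scaling, scaling on the median gene, the value table, other filters, fewer arrays, slide, scan day or replicate number as a block, array weights, averaged probes, and each replicate left out. Promoter windows were found for 14130 tested genes, and the E-box was added after seeing the data. Python 3.11.15 and matplotlib 3.10.9 drew the figures.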

Additional observations from a re-analysis of the deposited data

Results flagged for a closer look

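Single arrays stood far from the other 3 of their dose, by Dixon's ratio of gap to range, in 46 of the 558 groups of 4 arrays checked over 279 genes (8.24%). Chance gives such a gap in about 1 of 20 groups, and genes measured on one array share it. Values are log2 levels. Replicate 4 of the high dose stood apart for Csf1r (0.53), Ddah1 (0.82), Hbegf (-2.24), Ier5 (4.54), Mmp9 (-0.57), Ncam1 (2.19), Nop56 (4.08), Polr1b (0.38), Rbl2 (-1.54), Rrp12 (1.87), Spon2 (-1.95) and Tm7sf2 (-0.83). Replicate 3 of the high dose stood apart for Cacna1g (-4.10), Col16a1 (2.12), Ddx21 (1.31), Fos (-2.32), Mmp14 (0.31) and P4ha1 (0.26). Replicate 1 of the high dose stood apart for B2m (7.35), Cdh5 (-5.91) and Exosc2 (8.03). Replicate 2 of the high dose stood apart for Itgam (3.29), Plk1 (3.70) and Spag5 (0.17). Replicate 4 of the low dose stood apart for Aldh1l2 (1.56), Ddx21 (-1.72), Manf (1.48), Mertk (-3.28), Mthfd1l (0.009), Ndrg1 (4.66), Pdgfra (4.80) and Phgdh (5.59). Replicate 1 of the low dose stood apart for Adm (-7.50), Aspm (0.50), Hmmr (0.82), Hspd1 (4.97), Insig1 (-0.74), Oasl1 (-1.58) and Slc22a2 (-2.15). Replicate 3 of the low dose stood apart for Des (-1.36), Fosl1 (-2.40), Irf9 (2.55), Sting1 (2.03) and Tmem158 (1.32). Replicate 2 of the low dose stood apart for Il1rn (-7.38) and Pfkp (2.19). The tests printed for these genes include the array that stood apart.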

How the results depend on the processing

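The 9138 calls between the doses numbered 7967 to 10424 under every alternative except single slides and the second scan day left out, given below, and scaling on the median gene, which gave 6686, and no named gene reversed direction beyond the threshold. That scaling turned the split from 44.9% to 52.5% higher and left 801 step differences and 0 genes called in the same direction at both doses, of 3068 and 20. Normexp background correction together with quantile scaling left 595 higher and 488 lower genes at 2-fold or more, and 684 of 1035 bounded at the low dose. The count of 20 called at both doses was 11 with the deposited value table, 3 without a filter, 38 with a stricter one, 0 with only the arrays compared, 74 with slide as a block, 168 with array weights and 10 with probes averaged; leaving out 1 array gave 1 to 65. Within slides 1, 3 and 5 there were 4628, 2775 and 3372 calls; within slides 1 and 3, 24 and 6 step differences, 192 and 181 bounded genes and 0 and 0 called at both doses. Without the arrays scanned on the second day, a choice made after seeing the data, 7746 calls, 2002 step differences and 1 gene called at both doses were left. The causes were not tested, except that slides and left-out arrays hold fewer samples. Same-numbered samples did not all deviate together (r of -0.07, 0.38, 0.10 and -0.12). Those numbered 2 shared slide 3 and those numbered 3 shared slide 1, so these values cannot settle whether a number marks a pair. With the replicate block there were 9075 calls, holding 98.0% of the main ones. Probes not above background on any array of a dose give bounds only, and 4 arrays per dose limit the precision.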

Other observations

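Enzymes and targets of sugar metabolism went both ways between the doses. Of 25 measured genes of glycolysis and hypoxia 10 rose and 5 fell. Pfkfb3, which makes an activator of phosphofructokinase, rose by 1.1, Pkm by 0.82, Pgam1 by 0.79, Pgk1 by 0.66, the glucose transporter gene Slc2a1 by 0.64, Eno1 by 0.59, Ldha by 0.55, Hk2 by 0.49, Gapdh by 0.45 and Tpi1 by 0.38. Pgk1 lay at 7.27, 6.91, 6.92 and 6.62 at the high dose and at 6.43, 6.18, 6.09 and 6.38 at the low dose, without overlap. The aldolase gene Aldoc (-1.63), the carbonic anhydrase gene Car9 (-0.83), Ndrg1 (-0.72), Ankrd37 (-0.68) and the pyruvate dehydrogenase kinase gene Pdk1 (-0.68, with probes from -0.68 to 0.01) fell. The other probe of Car9 had a difference of -3.64 and also passed. Ndrg1 lay at 3.80, 3.80, 3.59 and 3.70 against 4.37, 4.39, 4.36 and 4.66 at the low dose. The other 10 did not pass: Pfkl (0.24), Gpi1 (0.13), Vegfa (0.11), Pfkp (0.06), Aldoa (0.05), Hk1 (-0.03), Slc16a3 (-0.19), Bnip3 (-0.24) and Egln3 (-0.24), while Adm was not well above background at either dose. The 4 probes of Vegfa ranged from -0.13 to 0.48, and 2 of them passed when tested singly.

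The metallothioneins, which bind zinc and other metals, did not move together: Mt1 fell by 0.61 on the log2 scale, Mt2 rose by 0.34 and Mt3 (0.01) did not pass.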
